A study of Mus musculus with 3 samples.

Results

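The 9 genes described here encode enzymes of the citric acid cycle: Cs, Idh3a, Idh3b, Idh3g, Ogdh, Suclg1, Sucla2, Suclg2 and Mdh2. They were chosen by gene symbol, as pathway members, and are 9 of 19938 genes measured with 10 of 28943 probe sets. Total RNA of 3 mouse samples was hybridised to Affymetrix whole-transcript arrays, with 1 array for each. The first sample is labelled DiBA, and the series title names brown adipocytes made by direct conversion. The second, BA, has brown adipose tissue as its source but is described as cultured material, so the labels leave its origin unsettled. The last is a culture of mouse fibroblasts. The sources used here do not state strain, age, the agents used for conversion or the time in culture. Every value is an intensity on a linear scale, and every difference is of log2(intensity + 1). With 1 array per group there is no replicate error and no test, so each difference describes these arrays only.

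In the citric acid cycle, mitochondria oxidise the acetyl group of acetyl-CoA to carbon dioxide and pass the electrons to the respiratory chain. Citrate synthase opens the cycle, isocitrate dehydrogenase and the oxoglutarate dehydrogenase complex release carbon dioxide, succinyl-CoA ligase forms a nucleoside triphosphate, and malate dehydrogenase closes it. Brown adipocytes are rich in mitochondria and burn acetyl-CoA from fatty acids and glucose to make heat through the uncoupling protein UCP1.

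The labels were first set against defining markers. Ucp1 had an intensity of 4598 in DiBA and 4995 in BA, against 23.5 in fibroblasts, and Adipoq, the gene of adiponectin, had 5849 in DiBA and 6048 in BA, against 14.9 in fibroblasts. Col1a1, a chain of type I collagen, had 854 in DiBA and 637 in BA, against 4780 in fibroblasts. Of the brown adipocyte list, 8 of 8 genes reached 2-fold above fibroblasts in both DiBA and BA, and the adipocyte list 8 of 8 measured genes. Of all genes tested, 14.7% were at least 2-fold higher in DiBA and 16.3% in BA. Array medians were 71.5 for DiBA, 67.7 for BA and 67.8 for fibroblasts. A call required a difference of 2-fold and a level of 69.2 (the middle value over all probe sets) on the brighter array. On the fibroblast array, 7 of the 8 brown adipocyte genes and 3 of the 8 adipocyte genes lay under that level. These passed only through the DiBA or BA array, so they could be called only higher, and the size of their differences is imprecise. All 9 enzymes passed that level on every array.

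Of the 9 enzymes, 8 exceeded fibroblasts by 2-fold or more in DiBA and 0 were lower, where 14.7% of 11621 genes tested were higher. In BA the same count was 8 higher and 0 lower, where 16.3% of 11663 genes tested were higher. The median difference over the 9 was 2.04 (log2, 4.12-fold) for DiBA and 2.14 (4.40-fold) for BA, beside a median of 0 over all genes tested in each comparison. Of all probe sets, 39.5% held identical values on DiBA and fibroblasts and 37% on BA and fibroblasts, which bears on that median. The exception among the 9 enzymes was Mdh2, which was higher by less than 2-fold in both. Both comparisons share the fibroblast array, so they are not independent of each other. In such samples, fewer cells of a type and less RNA per cell cannot be told apart.

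**Figure D1:**
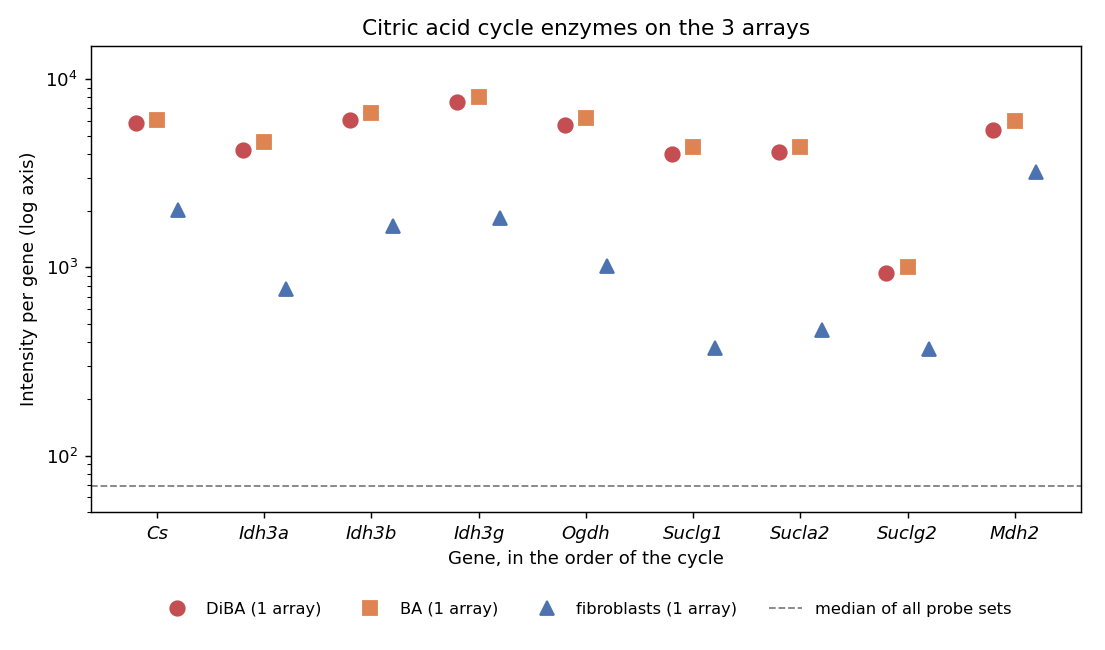
Intensity of the 9 enzymes (log axis) on the DiBA, BA and fibroblast arrays, 1 point per gene and array, with the median of all probe sets, 69.2, as a dashed line. For every gene the DiBA and BA points lie close together above the fibroblast point, with the smallest gap for Mdh2 (5372 in DiBA, 5984 in BA and 3210 in fibroblasts).

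Cs encodes citrate synthase, which joins acetyl-CoA to oxaloacetate and is widely used as a marker of mitochondrial content. Its intensity was 5811 in DiBA and 6045 in BA, against 2012 in fibroblasts. It was therefore higher by 1.53 (log2, 2.89-fold) in DiBA and by 1.59 (3.00-fold) in BA than in fibroblasts. Among the 9 enzymes these were larger differences than those of Suclg2 and Mdh2 and smaller than those of the other 6.

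Idh3a, Idh3b and Idh3g encode the subunits of the NAD-dependent isocitrate dehydrogenase of the mitochondrial matrix. Idh3a, the catalytic alpha subunit, had an intensity of 4183 in DiBA and 4642 in BA, against 765 in fibroblasts. It was 5.46-fold higher in DiBA and 6.06-fold higher in BA than in fibroblasts. The alpha subunit gene thus had the largest difference of the 3 subunit genes in both. Idh3b, the beta subunit, had 6067 in DiBA and 6575 in BA, against 1651 in fibroblasts, which is 3.67-fold higher in DiBA and 3.98-fold higher in BA. Idh3g, the gamma subunit, had 7538 in DiBA and 8057 in BA, against 1830 in fibroblasts, which is 4.12-fold higher in DiBA and 4.40-fold higher in BA. All 3 subunit genes lay well above fibroblasts, and the fold of Idh3a was 1.49 times that of Idh3b in DiBA and 1.52 times in BA.

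Ogdh encodes the E1 component of the oxoglutarate dehydrogenase complex, which decarboxylates 2-oxoglutarate. Its intensity was 5704 in DiBA and 6190 in BA, against 1011 in fibroblasts, which is 5.64-fold higher in DiBA and 6.12-fold higher in BA. The other components of that complex are Dlst, the succinyltransferase, and Dld, the dihydrolipoamide dehydrogenase it shares with the pyruvate dehydrogenase complex. Dlst was higher by 1.75 (log2) in DiBA and 1.93 in BA, and Dld by 2.54 in DiBA and 2.66 in BA, than in fibroblasts. Ogdhl, a paralogue of Ogdh best known from brain, had 48.3 in DiBA and 41.5 in BA, against 80.4 in fibroblasts. Its differences, -0.72 for DiBA and -0.94 for BA, stayed under 2-fold near the background of the arrays, while Ogdh was high in both.

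Succinyl-CoA ligase showed the widest split within one enzyme. Suclg1 encodes the alpha subunit common to both forms of the enzyme, and the beta subunit sets the nucleotide: Sucla2 gives the ADP-dependent form and Suclg2 the GDP-dependent form. Suclg1 had an intensity of 4008 in DiBA and 4345 in BA, against 372 in fibroblasts, and was 10.8-fold higher in DiBA and 11.7-fold higher in BA. Sucla2 had 4117 in DiBA and 4345 in BA, against 468 in fibroblasts, and was 8.78-fold higher in DiBA and 9.27-fold higher in BA. These were the largest differences among the 9 enzymes: of 11621 genes tested in DiBA against fibroblasts, Suclg1 ranked 213 from the highest and Sucla2 276. Suclg2 was measured by 2 probe sets. The first had 848 in DiBA and 921 in BA, against 340 in fibroblasts, and the second had 1021 in DiBA and 1085 in BA, against 396 in fibroblasts. Both probe sets gave similar folds, 2.49 and 2.57 in DiBA and 2.71 and 2.74 in BA, and the gene's mean ranked 1265 in DiBA. The probe table gives both sets to Suclg2, and whether a near-identical copy elsewhere shares signal with either was not tested. The fold of Sucla2 was 3.47 times that of Suclg2 in DiBA and 3.41 times in BA, so the genes of the 2 beta subunits differed from fibroblasts unequally. Between DiBA and BA that ratio was 1.02.

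Mdh2 encodes the mitochondrial malate dehydrogenase, which regenerates oxaloacetate and also serves the malate-aspartate shuttle. Its intensity was 5372 in DiBA and 5984 in BA, against 3210 in fibroblasts. Of the 9 enzymes it had the smallest difference, 0.74 (log2, 1.67-fold) in DiBA and 0.90 (1.86-fold) in BA. It was the only one of the 9 under the 2-fold threshold in these comparisons, and at a threshold of 1.5-fold all 9 were higher, where 21.4% of all genes tested were higher in DiBA and 22.9% in BA.

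**Figure D2:**
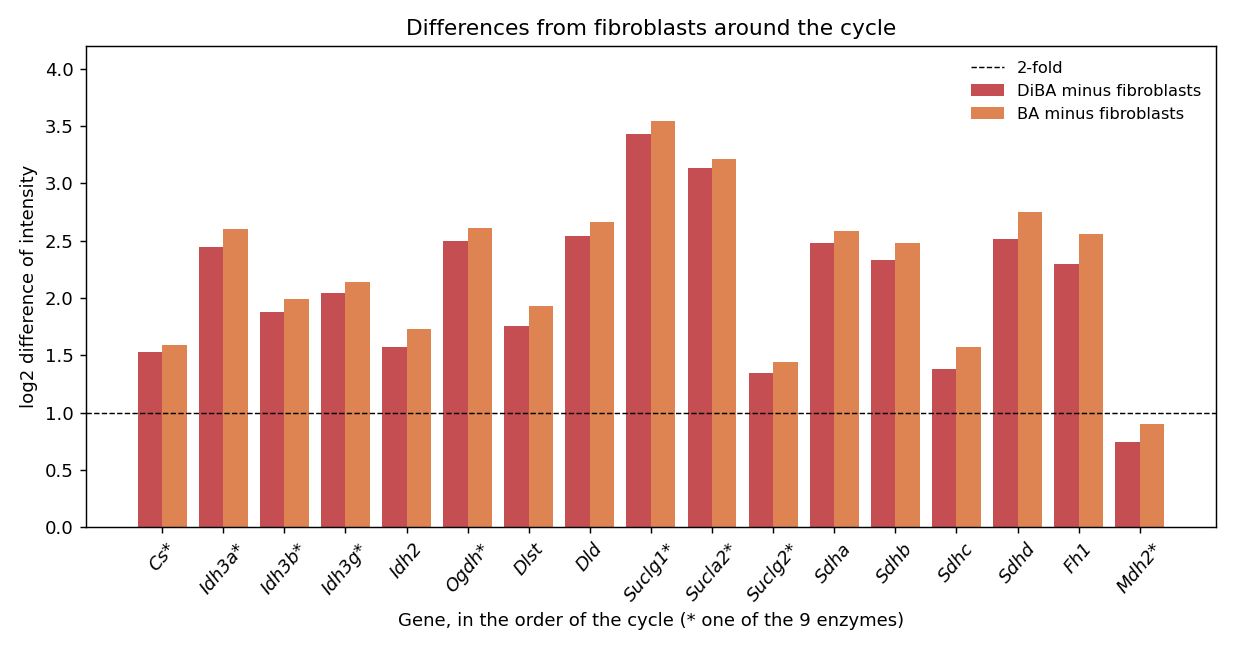
Differences from fibroblasts (log2) of the genes measured around the cycle, in the order of its reactions, for DiBA (left bar) and BA (right bar), with the 2-fold line dashed and stars on the 9 enzymes. Ogdhl, which lay below 0, is left out. Suclg1 and Sucla2 stand highest at 3.43 and 3.13 in DiBA, and Mdh2 alone stays under the line.

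The other enzymes of the cycle were higher to a similar extent. Of 9 such genes measured, 8 reached 2-fold above fibroblasts and 0 reached 2-fold below them in both DiBA and BA. Of all genes tested, 14.7% were higher in DiBA and 16.3% in BA. The median of the 9 was 2.30 (log2) in DiBA and 2.48 in BA. Among the subunits of succinate dehydrogenase, which is also respiratory complex II, Sdha was at 2.48 in DiBA and 2.59 in BA, Sdhb at 2.33 in DiBA and 2.48 in BA, and Sdhd at 2.51 in DiBA and 2.75 in BA. Sdhc, a membrane anchor of the same enzyme, was at 1.38 in DiBA and 1.57 in BA. Fh1, fumarase, was at 2.30 in DiBA and 2.55 in BA, and Idh2, the NADP-dependent mitochondrial isocitrate dehydrogenase, at 1.57 in DiBA and 1.73 in BA. Every reaction of the cycle with a gene measured here thus had a gene above fibroblasts, with malate dehydrogenase the lowest.

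Genes that bring pyruvate to the cycle were also higher. Of 7 on the list 6 were measured, and all 6 reached 2-fold above fibroblasts in both samples. Among all genes tested, 14.7% did in DiBA and 16.3% in BA. The medians of the 6 were 2.61 in DiBA and 2.65 in BA. Pcx, pyruvate carboxylase, which makes oxaloacetate, had an intensity of 2388 in DiBA and 2730 in BA, against 173 in fibroblasts. Its difference of 3.78 in DiBA and 3.97 in BA exceeded that of each of the 9 cycle enzymes. The pyruvate dehydrogenase gene Pdhb was at 3.03 in DiBA and 3.11 in BA, and Pdha1, its partner in the E1 component, at 1.94 in DiBA and 2.02 in BA. Dlat and Pdhx, the E2 component and its binding protein, were at 2.07 and 2.23 in DiBA. Mpc1, a subunit of the mitochondrial pyruvate carrier, was at 3.00 in DiBA and 3.02 in BA.

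Enzymes and carriers that exchange metabolites with the cycle were mixed. Of 18 measured out of 19, 9 reached 2-fold above and 3 reached 2-fold below fibroblasts in DiBA. There 14.7% of all genes tested were higher and 13.2% lower. In BA 9 were higher and 4 lower, where 16.3% of all genes tested were higher and 16.4% lower. The counts of lower genes thus lay near the shares of all genes. The medians were 1.04 in DiBA and 1.21 in BA, below those of the 9 cycle enzymes. The route of citrate to cytosolic acetyl-CoA was among the higher genes, with Slc25a1, the citrate carrier, at 1.78 in DiBA and 1.86 in BA, and Acly, ATP-citrate lyase, at 1.77 in DiBA and 1.94 in BA. Aco1, the cytosolic aconitase, was at 1.38 in DiBA, while Idh1, the cytosolic NADP-dependent isocitrate dehydrogenase, was at 0.79 and Glud1, glutamate dehydrogenase, at 0.54. Slc25a22, a glutamate carrier, was at 1.16 in DiBA and 1.52 in BA, and Slc25a10, the dicarboxylate carrier, at 1.74 in DiBA and 1.94 in BA.

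**Figure D3:**
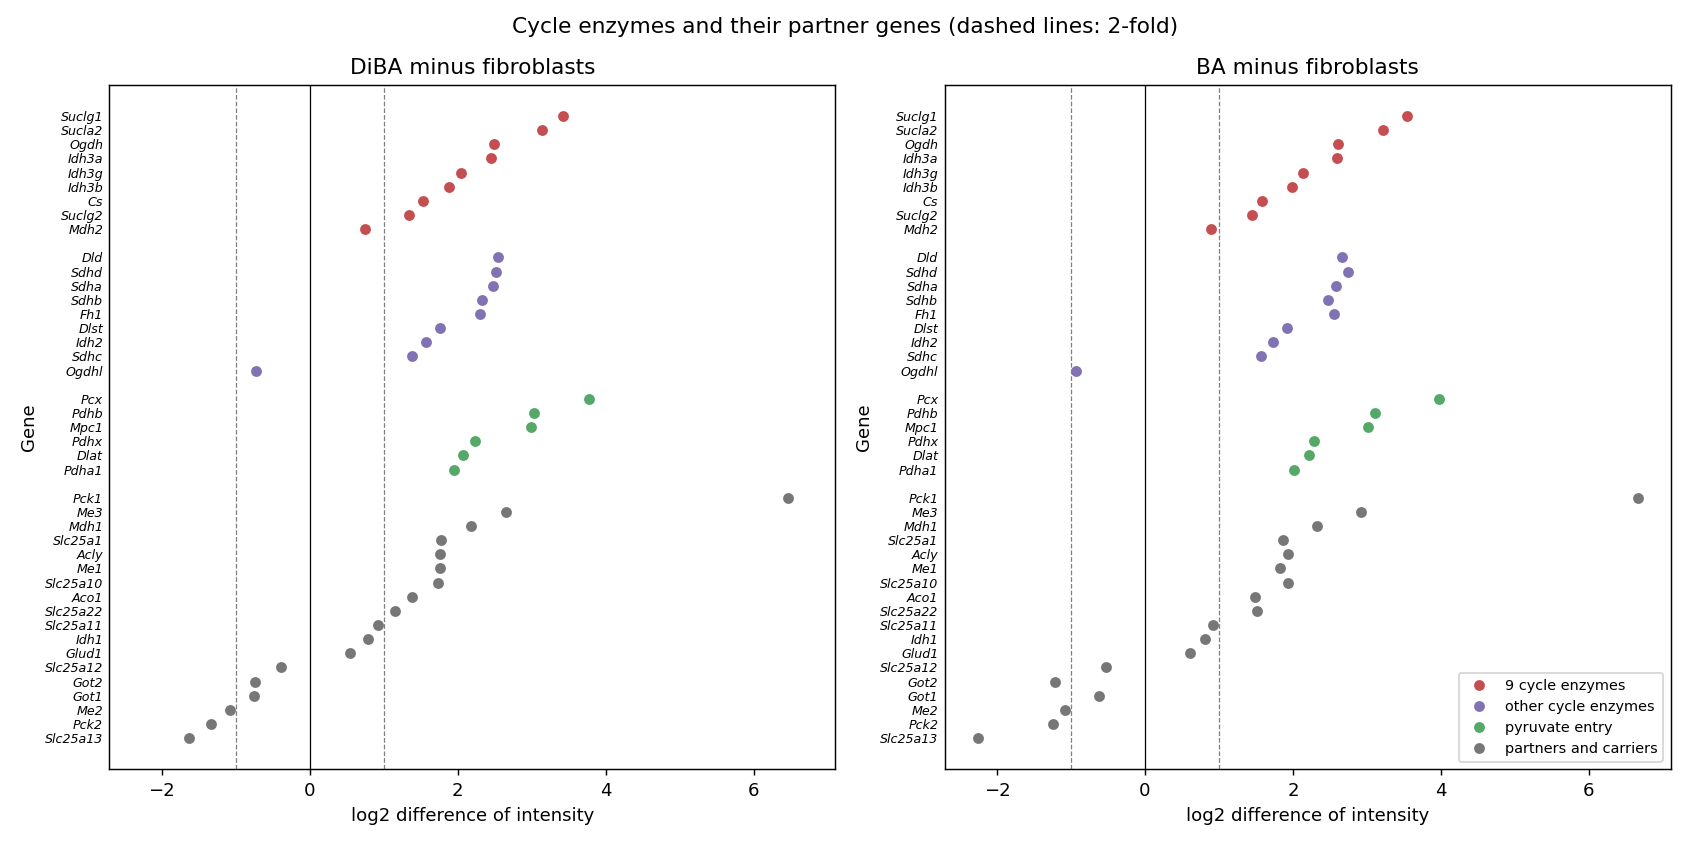
Differences from fibroblasts (log2) of each measured gene of the 9 cycle enzymes, the other cycle enzymes, pyruvate entry, and the partner enzymes and carriers, for DiBA (left) and BA (right), with 2-fold lines dashed. The cycle and pyruvate genes lie to the right of 0 except Ogdhl, while the partner list runs from Slc25a13 at -1.63 to Pck1 at 6.46 in DiBA.

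DiBA and BA differed little in these genes, and always in the same direction. Of the 9 enzymes 0 reached 2-fold above BA in DiBA, where 1.75% of 11076 genes tested were higher, and 0 were lower, where 0% were. All 9 intensities were slightly below those of BA, with a median difference of -0.12 (log2). Among all genes tested, 41.3% lay below 0 and 26.2% were exactly 0, with a median of 0. Marker lists higher in BA than in fibroblasts also lay mostly below 0. Below it were 7 of 8 adipocyte genes, 6 of 8 brown adipocyte genes and 9 of 9 endothelial genes, the last with a median of -0.27. The brown adipocyte exceptions were Prdm16, higher in DiBA by 2.28 (4.85-fold), and Dio2, with identical values on both arrays. Of 9 macrophage genes that passed the filter, 6 lay below 0 and 3 above. Of the 9 enzymes, Cs was closest to BA, 1.04-fold lower in DiBA, and Mdh2 farthest, 1.11-fold lower. The 8 other cycle enzymes that passed the level filter and the 6 pyruvate genes were also below 0, with Fh1 at -0.26 the lowest of them. No spread between replicates is known, so whether differences of this size exceed it was not testable. None of the 10 probe sets carried identical values on any pair of arrays. Of all probe sets, 47.3% did on DiBA and BA, 39.5% on DiBA and fibroblasts, and 37% on BA and fibroblasts.

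**Figure D4:**
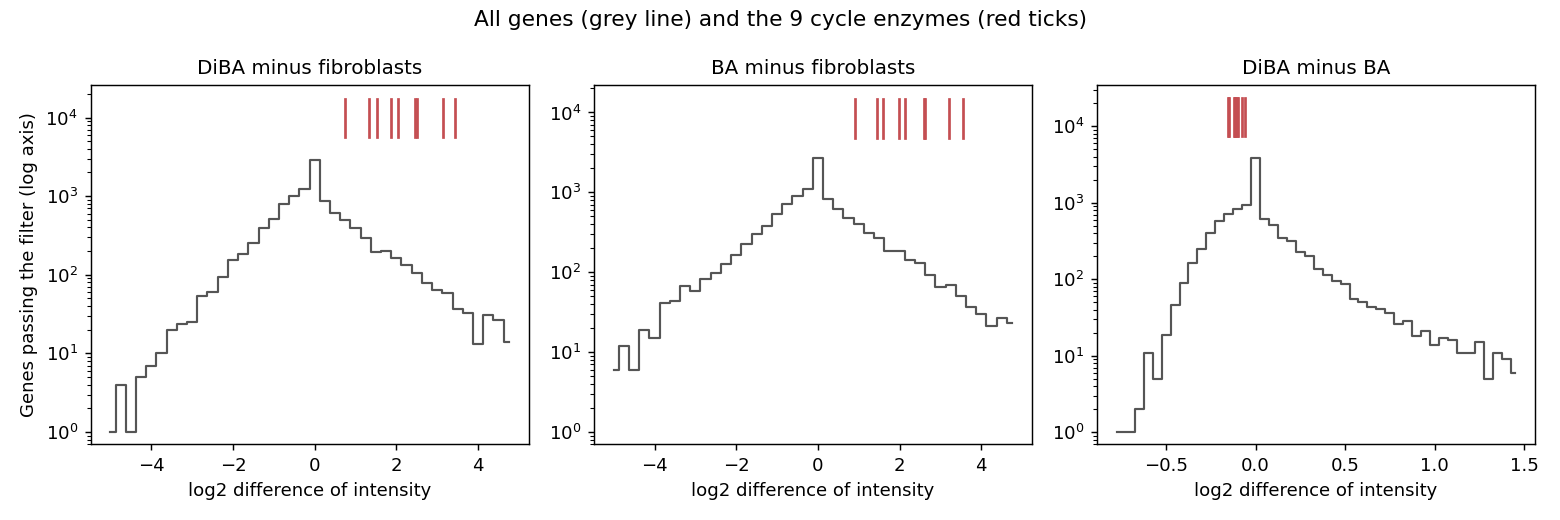
Number of genes passing the filter (log axis) by log2 difference for each pair of arrays (grey line), with the 9 enzymes as red ticks whose height has no meaning. The ticks run from 0.74 to 3.43 for DiBA minus fibroblasts, from 0.90 to 3.54 for BA minus fibroblasts, and from -0.16 to -0.06 for DiBA minus BA. Genes beyond the plotted range, 65, 90 and 86 in that order, are not drawn.

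Markers of other cell types were higher beside the enzymes. For scale, 14.7% of all genes tested were at least 2-fold higher than fibroblasts in DiBA and 13.2% lower. In BA these shares were 16.3% and 16.4%. Of 14 genes of skeletal muscle, 12 reached 2-fold above and 2 reached 2-fold below fibroblasts in DiBA and in BA, and the list's summed intensity was 18543 in DiBA and 20764 in BA, against 2586 in fibroblasts. The lower ones were Myod1 and Myog, transcription factors of muscle determination and differentiation, with Myod1 at 60.4 in DiBA and 59.5 in BA, against 128 in fibroblasts. Myog had 39.7 in DiBA and 36.0 in BA, against 82.3 in fibroblasts. Pvalb, parvalbumin, had 1841 in DiBA and 2140 in BA, against 42.7 in fibroblasts, and the fast myosin gene Myh4 had 1142 in DiBA and 1295 in BA, against 41.2 in fibroblasts. For all 4 of these genes the dimmer arrays lay under 69.2, so the size of the difference is imprecise. Ckm, muscle creatine kinase, had 2489 in DiBA and 2805 in BA, against 94.7 in fibroblasts. Muscle is itself rich in cycle enzymes. Endothelial genes were higher in 8 of 9 cases in DiBA and 9 of 9 in BA, with sums of 3219 in DiBA and 3844 in BA, against 594 in fibroblasts. Cdh5, a junction protein of endothelial cells, had 1027 in DiBA and 1188 in BA, against 32.6 in fibroblasts. In fibroblasts 6 of the 9 endothelial genes, Cdh5 among them, lay under 69.2. These could be called only higher, and the size of their differences is imprecise. Macrophage genes were higher in 8 of 10 cases in DiBA and 7 of 10 in BA, with sums of 4417 in DiBA and 4278 in BA, against 1299 in fibroblasts. Adgre1, a surface receptor of macrophages, had 177 in DiBA and 179 in BA, against 70.4 in fibroblasts. Of the 10 macrophage genes, 3 lay under 69.2 in fibroblasts, so the same limit holds for them. Erythrocyte genes had 1 of 2 measured higher in both, Alas2 of haem synthesis, which had 25.95 in fibroblasts, also under 69.2. Fibroblast genes were lower in 7 of 10 cases in DiBA and 8 of 10 in BA, with sums of 13638 in DiBA and 10172 in BA, against 35794 in fibroblasts. No defining marker of these lists was at 0 on any array. In DiBA against BA, all 12 muscle genes that passed the filter were lower and all 10 fibroblast genes were higher, by medians over the lists of -0.18 and 0.26. The part of these cells in the enzymes' differences was not tested.

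Promoter windows, from 250 bases before to 50 after a gene's start, were held for 8 of the 9 genes in the RefSeq table of build GRCm38.p6, with 6 windows for Ogdh. They were searched on both strands for letters of elements linked in the literature to mitochondrial or housekeeping genes. The GC box GGGCGG was in windows of 5 of the 8 genes (Cs, Ogdh, Sucla2, Suclg2 and Mdh2), and 38.2% of 27025 genes hold it. The cyclic AMP response element TGACGTCA was in those of Ogdh and Mdh2, and 2.03% of genes hold it. The oestrogen-related receptor letters AAGGTCA were in 1 of 8, a further Ogdh window, against 5.38% of genes, and the longer TCAAGGTCA, which contains them, in 0 of 8, against 0.466%. The NRF1 core GCGCANGC was in those of Ogdh and Sucla2, against 11.2% of genes. Its stricter form GCGCATGC was in 1 of 8, Ogdh, against 3.05%. The E-box CACGTG was in 1 of 8, Ogdh, against 8.09%. These shares are per gene, and the 27025 genes hold 32851 windows. Ogdh has 6 of the 13 windows of the 8 genes, so it had more places for a match than most genes. With 8 genes these counts describe letters only, and nothing on these arrays measured binding.

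The windows of the ligase genes are shown because their differences split most widely, and those of Ogdh (its first window) and Mdh2 because they hold the cyclic AMP response element while their differences lie far apart. Capitals mark any of the letters searched, read on either strand, and each window is written 5′ to 3′ on the gene's strand.
Suclg1 (chr6:73248255-73248554, plus strand): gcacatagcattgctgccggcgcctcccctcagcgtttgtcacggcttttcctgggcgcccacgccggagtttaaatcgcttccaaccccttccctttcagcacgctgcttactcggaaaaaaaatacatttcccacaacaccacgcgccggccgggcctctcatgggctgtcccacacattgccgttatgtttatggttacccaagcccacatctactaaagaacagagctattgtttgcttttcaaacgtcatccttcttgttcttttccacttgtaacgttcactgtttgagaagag
Sucla2 (chr14:73552536-73552835, plus strand): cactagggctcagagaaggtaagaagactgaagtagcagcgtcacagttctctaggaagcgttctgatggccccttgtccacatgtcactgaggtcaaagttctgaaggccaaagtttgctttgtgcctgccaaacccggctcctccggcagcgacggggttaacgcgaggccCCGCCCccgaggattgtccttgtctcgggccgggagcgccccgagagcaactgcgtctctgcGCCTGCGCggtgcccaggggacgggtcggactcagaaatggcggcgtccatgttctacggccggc
Suclg2 (chr6:95718797-95719096, minus strand): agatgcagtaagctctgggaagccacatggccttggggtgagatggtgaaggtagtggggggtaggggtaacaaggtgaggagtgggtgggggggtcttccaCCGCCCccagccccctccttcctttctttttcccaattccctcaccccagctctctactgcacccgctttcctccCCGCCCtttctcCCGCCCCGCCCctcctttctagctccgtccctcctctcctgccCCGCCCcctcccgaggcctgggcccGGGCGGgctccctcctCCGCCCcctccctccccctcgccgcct
Ogdh (chr11:6291347-6291646, plus strand): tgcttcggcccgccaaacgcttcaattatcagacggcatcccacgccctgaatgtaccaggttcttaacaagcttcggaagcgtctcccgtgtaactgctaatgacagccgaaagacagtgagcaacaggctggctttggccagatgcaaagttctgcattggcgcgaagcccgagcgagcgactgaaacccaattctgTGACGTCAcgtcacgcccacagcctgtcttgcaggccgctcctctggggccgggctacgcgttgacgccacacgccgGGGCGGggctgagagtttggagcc
Mdh2 (chr5:135778399-135778698, plus strand): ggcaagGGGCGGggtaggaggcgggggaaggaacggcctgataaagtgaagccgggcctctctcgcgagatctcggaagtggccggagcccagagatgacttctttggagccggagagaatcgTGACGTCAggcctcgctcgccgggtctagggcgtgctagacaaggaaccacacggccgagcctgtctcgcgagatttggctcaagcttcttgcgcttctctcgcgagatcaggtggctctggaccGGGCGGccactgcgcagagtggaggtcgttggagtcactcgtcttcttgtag

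Suclg1, with the largest difference of the 9 enzymes, had none of these letters in its window. Suclg2, with a lower difference than all but Mdh2, had 7 matches, all of the GC box, in a window of 67.7% G and C, against 51.0% in that of Suclg1. Sucla2 had 1 GC box and 1 match to the NRF1 core. The windows of Idh3b and Idh3g held no match, and that of Idh3a was not used here.

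The genes most like the median pattern of the 9 were found by the Euclidean distance over the 2 differences from fibroblasts, across 3 arrays and 11585 genes passing the filter in both. The 5 nearest were Sort1 (sortilin), St6galnac5 (a sialyltransferase), Mmaa (a protein of vitamin B12 metabolism), Uqcrh (a subunit of respiratory complex III) and Isca1 (an iron-sulphur cluster assembly protein). Their distances ran from 0.02 for Sort1 to 0.04 for Isca1. Uqcrh had an intensity of 4437 in DiBA and 4761 in BA, against 1101 in fibroblasts, and Sort1 had 1259 in DiBA and 1345 in BA, against 308 in fibroblasts. With 3 arrays such closeness is a description of these differences only.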

How the data were processed

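Each probe set has 1 linear intensity per array, as deposited by the authors. The submitters' processing notes name Affymetrix Expression Console, and the sources used here state neither its version nor how values were summarized and normalized. RNA was isolated with ISOGENII and labelled with biotin, per the labels' protocols. The similar array medians led to the intensities being taken as normalized.

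Genes were named from the platform's probe table: 21789 probe sets had 1 symbol and gave 19938 genes, and probe sets with several symbols (1621) or not listed (5533) named none. Probe sets of a gene were averaged as log2(intensity + 1). A gene was called at 2-fold where the brighter array reached 69.2, the median of all probe sets. Differences were computed with Python 3.11.15, numpy 2.4.6 and pandas 2.3.3, and the steps were tested on simulated data. The number of arrays, 3, limits the precision.

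The 9 enzymes and all lists were chosen with earlier results of these data known. The rule named all 9, every gene of the lists of other cycle enzymes, pyruvate entry and partners, the defining and leading markers, and the 5 genes of nearest pattern. The leading markers of most marker lists are not named here. Alternatives were centring, quantile normalization, a pseudocount of 16, a floor at 69.2, no filter, a 75th percentile filter, the highest or lowest probe set, and a 1.5-fold threshold. A planned comparison of protein sequences was not analysed here, and 1 listed gene is not reported here.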

Additional observations from a re-analysis of the deposited data

How the results depend on the processing

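The number of the 9 enzymes called stayed at 8 higher in DiBA and in BA than in fibroblasts, and at 0 between DiBA and BA, under every alternative run except the 1.5-fold threshold, where Mdh2 made it 9 in both comparisons with fibroblasts. Their median ran from 1.97 to 2.04 for DiBA minus fibroblasts, from 2.09 to 2.14 for BA minus fibroblasts, and from -0.19 to -0.10 for DiBA minus BA. Of 243 values of single enzymes under alternatives, 241 kept direction and call, and 2, both of Mdh2 at 1.5-fold, gained a call. Many of these could not have differed. Every enzyme exceeded the 75th percentile of all probe sets, 246, on every array. The floor at the median intensity, no filter and the 75th percentile filter therefore left every value unchanged. The highest or lowest probe set could alter Suclg2 alone, and the 1.5-fold threshold alters calls only. For the other enzymes, only centring, quantile normalization and the larger pseudocount changed the values. Centring each array moved the median of all genes to -0.08 for DiBA minus BA and for DiBA minus fibroblasts, and all 9 enzymes remained below BA in DiBA under every alternative. Taking the lowest probe set, which among the 9 bears on Suclg2 alone, was chosen after seeing the data. None of the 9 was left out by the level filter. Over all genes, the 1.5-fold threshold gave 2486 higher and 2747 lower in DiBA than in fibroblasts (1703 and 1530 at 2-fold), 2675 higher and 3049 lower in BA (1897 and 1913 at 2-fold), and 456 higher and 11 lower in DiBA than in BA (194 and 0 at 2-fold). With the 75th percentile filter 76 were higher in DiBA than in BA, and with no filter 1 was lower. No paired analysis was possible because each group holds 1 array. Leaving out a replicate was not possible either.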

Other observations

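Isoenzymes of phosphoenolpyruvate carboxykinase and of malic enzyme differed in direction against fibroblasts, while those of some other families did not. In DiBA, Idh1 (0.79), Idh2 (1.57) and Idh3a (2.45) all lay above fibroblasts, as did Mdh1 (2.18) and Mdh2 (0.74). Got1 (-0.75) and Got2 (-0.74) both lay below. Of all genes tested, 13.2% were at least 2-fold lower than fibroblasts in DiBA and 16.4% in BA. Pck1, the cytosolic phosphoenolpyruvate carboxykinase, had an intensity of 4129 in DiBA and 4738 in BA, against 45.9 in fibroblasts, whereas Pck2, its mitochondrial isoenzyme, had 225 in DiBA and 239 in BA, against 570 in fibroblasts. The fibroblast value of Pck1 lay under 69.2, so its difference of 6.46 (log2) in DiBA is imprecise. Among malic enzymes, the cytosolic Me1 was at 1.76 in DiBA and 1.83 in BA and the mitochondrial Me3 at 2.65 in DiBA and 2.92 in BA, while the mitochondrial Me2 was at -1.08 in both. Me2 had an intensity of exactly 160.9 on both the DiBA and the BA array. Me1 was measured by 2 probe sets.

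The malate-aspartate shuttle, which carries reducing equivalents into mitochondria, was singled out after its values were seen. Mdh1, the cytosolic malate dehydrogenase, was at 2.18 in DiBA and 2.33 in BA against fibroblasts. The mitochondrial Mdh2 (0.74 in DiBA and 0.90 in BA) and Slc25a11, the oxoglutarate carrier (0.93 in both), stayed under 2-fold. The aminotransferase genes Got1 and Got2 were at -0.75 and -0.74 in DiBA, also under 2-fold, and the aspartate-glutamate carrier genes Slc25a12 and Slc25a13 at -0.39 and -1.63. In BA, Got2 was at -1.21 and Slc25a13 at -2.26, both at least 2-fold lower. Got2 was measured by 2 probe sets, whose separate values are not given here. Got2 averaged 1951 in DiBA and 1406 in BA, against 3259 in fibroblasts. It was higher in DiBA than in BA by 0.47, unlike the 9 cycle enzymes, which were all lower. Slc25a13 had 56.0 in DiBA and 35.7 in BA, both under 69.2, against 175 in fibroblasts.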
